A study of Mus musculus with 13 samples.

Results

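Binding of C/EBPα around the genes that drive or brake entry into the cell cycle was examined in LSK cells, the Lin- Sca-1+ Kit+ bone marrow fraction that holds the hematopoietic stem cells. The genes were Ccnd1, Ccnd2, Ccnd3, Cdk4, Cdk6, Cdkn1a, Cdkn1b, Cdkn1c, Cdkn2c and E2f1. A candidate region was assigned to a gene when its centre lay within 100 kb of the transcription start site (TSS) or inside the gene body. By this rule 31 of the 17899 deposited candidate regions belonged to the 10 genes, and no region belonged to more than 1 of them. The study measured C/EBPα, an IgG mock and the histone marks H3K4me3 and H3K27me3 by ChIP-seq, which sequences the DNA fragments that an antibody pulls down from crosslinked chromatin. Of its 13 samples, 1 was analysed here, the LSK library made with the Santa Cruz 14-AA antibody against C/EBPα. The strain of this library was C57BL/6 with Cebpa flanked by loxP sites (flox/flox) and Mx1Cre, a Cre driven by an interferon-responsive promoter that is switched on by pIpC and is not restricted to blood cells. Its labels give no genotype. Wild type and knock out histone libraries share this strain label, so that the labels do not settle whether Cebpa had been deleted in these mice. The study reports the ChIP as C/EBPα binding in LSK cells, and its methods do not say which genotype was used for it. The study used adult mice, and pIpC was injected into its controls without Cre as well. The methods give an age and an injection schedule for the mice of the study in general, and the sources used here do not say whether they apply to this library or how many animals were pooled for it.

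Regions were called by the authors with MACS, which looks for places where ChIP reads pile up over a control, in this case the IgG mock. The deposited score is the log10 of the caller's p-value multiplied by 10, with the sign turned, so that a score of 100 stands for a p-value of 1e-10. The scores in the list ranged from 50 to 3104.89. These are candidates from before the study's later filters. The list gives no read numbers, and the mapped reads per library, which the study shows in a figure, were not used here, so that no depth is given for a region. The sources used here do not say whether reads of more than 1 C/EBPα library of LSK cells went into the list. With 1 list there were no replicate calls, and no test between groups was possible. Many counts are set beside the same count over all regions, all pairs of a gene and a region, or all 22367 protein-coding genes. Counts without such a value only describe the regions they cover. The list holds candidate regions and no expression, so that the labelled cell type could not be checked against its markers, and it gives no measure of the quiescence of the stem cells among the LSK cells.

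Progression from G1 into S phase is driven by the D cyclins, which activate the kinases CDK4 and CDK6. These phosphorylate the retinoblastoma protein, which then releases E2F factors such as E2F1 to switch on genes of DNA replication. The INK4 inhibitors, among them p18 from Cdkn2c, bind CDK4 and CDK6 and keep the D cyclins away. The Cip/Kip inhibitors p21 (Cdkn1a), p27 (Cdkn1b) and p57 (Cdkn1c) bind cyclin and kinase together. Most long-term hematopoietic stem cells are quiescent, p57 is known for its part in keeping them so, and combined loss of the D cyclins or of CDK4 and CDK6 impairs blood formation in the mouse embryo. C/EBPα is known to arrest the cycle of differentiating myeloid cells.

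Sequences are shown for the 3 regions with a C/EBP word at the centre and for the regions of Cdkn1a and Cdkn1b with a score of 100 or more, the highest among the inhibitor genes. The C/EBP word was TTACNNAA or TTGCNNAA on either strand, where N is any base, and the words are in capitals. The sequences were read from the mm9 assembly. The run for Ccnd2 spans all 3 C/EBP words of its upstream region, those for Ccnd1 and E2f1 are the bases within 70 bp of the region centre, and those for Cdkn1a and Cdkn1b surround the single word of the region.
Ccnd2, chr6:127115855-127116132, plus strand, 278 bases: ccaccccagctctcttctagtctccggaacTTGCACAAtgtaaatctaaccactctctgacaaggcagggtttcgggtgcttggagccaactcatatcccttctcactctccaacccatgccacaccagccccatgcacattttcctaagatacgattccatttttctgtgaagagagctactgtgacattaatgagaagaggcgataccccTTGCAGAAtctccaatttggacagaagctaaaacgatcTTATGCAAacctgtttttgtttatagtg
Ccnd1, chr7:152095712-152095852, plus strand, 141 bases: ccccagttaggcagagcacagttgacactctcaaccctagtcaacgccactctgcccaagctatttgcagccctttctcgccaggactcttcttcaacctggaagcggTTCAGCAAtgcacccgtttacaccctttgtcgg
E2f1, chr2:154494459-154494599, plus strand, 141 bases: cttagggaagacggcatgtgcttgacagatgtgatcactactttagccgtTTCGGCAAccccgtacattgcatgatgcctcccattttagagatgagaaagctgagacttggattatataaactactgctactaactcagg
Cdkn1a, chr17:29251028-29251115, plus strand, 88 bases: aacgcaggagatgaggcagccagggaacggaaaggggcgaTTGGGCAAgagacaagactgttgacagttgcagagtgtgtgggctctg
Cdkn1b, chr6:134870454-134870483, plus strand, 30 bases: ccaccgccataTTGGGCAActaaaaaagga
In the direction of the consensus, the word nearest the centre was TTGCACAA at Ccnd2, TTGCTGAA at Ccnd1 and TTGCCGAA at E2f1. The Cdkn1a and Cdkn1b regions both carried TTGCCCAA. The first 4 runs lie outside exons of protein-coding genes, and the Cdkn1b run lies in the 5' UTR in exon 1.

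All 10 genes had at least 1 candidate region, as did 80.3% of all protein-coding genes. The 10 genes had a median of 3 regions, against 2 over all genes. Ccnd3 and E2f1 had 6 regions each, a number that 98.8% of genes did not exceed. Ccnd2 and Cdkn1b had 4, Cdkn1a and Cdkn1c had 3, Cdk4 had 2, and Ccnd1, Cdk6 and Cdkn2c had 1. The highest score of a gene was 217.4 at Ccnd2, 185.62 at Cdkn1a, 139.32 at Cdkn1b, 127.59 at E2f1, 107.21 at Ccnd1, 105.47 at Ccnd3, 100.23 at Cdk4, 90.17 at Cdkn1c, 88.12 at Cdk6 and 81.01 at Cdkn2c. There was no replicate spread by which neighbours in this order could be told apart. A region with a score of 100 or more was present at 7 of the 10 genes (95% exact binomial interval 34.8 to 93.3%), against 28.9% of all genes, and a region with a score of 200 or more at 1 gene, Ccnd2, against 5.5% of all genes. The interval covers counting error only. The 10 genes were no random sample, were chosen with earlier results of these data known and had more regions per gene. No enrichment is therefore read from these shares, and none was tested. When only regions nearest to the TSS of the gene were counted, 3 of the 10 genes had a score of 100 or more, Ccnd2, Ccnd3 and Cdkn1b, against 10.3% of all genes. This count rests on the starts of the longest transcripts, and with the nearest gene taken over every annotated start there were 4, with Cdkn1a added, against 10.6% of all genes. With every annotated transcript start, 2 genes had a score of 200 or more, Ccnd2 and Ccnd3, against 5.72% of all genes.

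**Figure D1:**
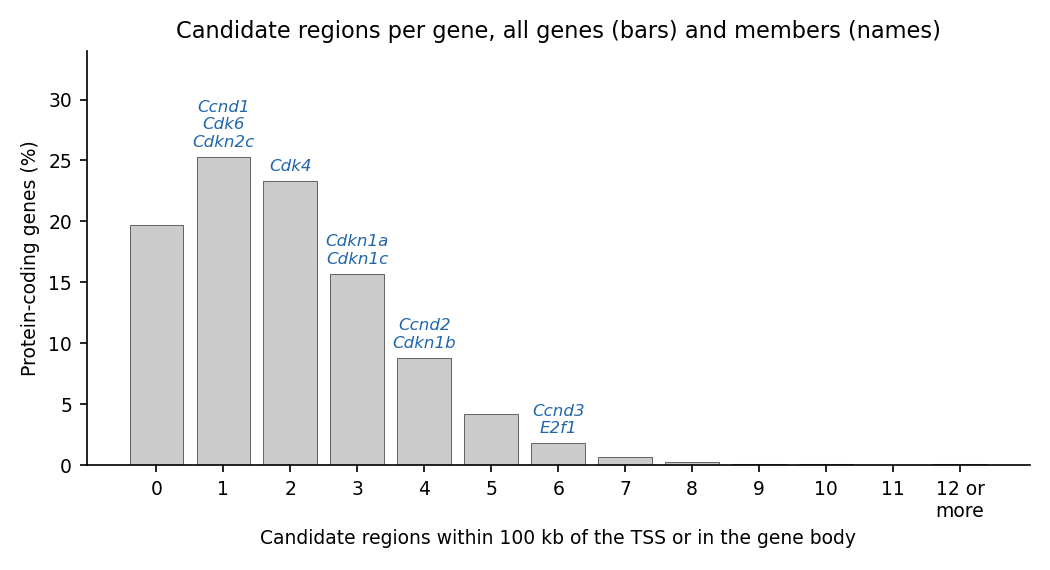
Share of all 22367 protein-coding genes (bars, percent) by the number of candidate regions within 100 kb of the TSS or in the gene body, with the names of the 10 genes above the number they had. Ccnd3 and E2f1 stand at 6 regions, and Ccnd1, Cdk6 and Cdkn2c at 1.

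Of the 31 regions 18 were upstream and 13 downstream of the TSS, with a median distance of 34839 bp. Of the 31 regions 3 lay within 5 kb of the TSS of their gene, 11 within 20 kb and 12 more than 50 kb away, against 4.72%, 18.8% and 52.9% of all 43912 pairs of a gene and a region. In the body of their gene lay 7 of the 31, a count for which no share over all pairs is given. Another gene had the nearer TSS for 19 of the 31 regions, and a median of 4 protein-coding genes (range 2 to 11) had a TSS within 100 kb of a region. For this count and this median no value over all pairs or all regions is given, so that both only describe the 31 regions. A region nearest to their own TSS was found for 7 of the 10 genes, against 38% of all genes. A region centre within 5 kb of the TSS was found for 3 of the 10 genes, Ccnd3, Cdkn1b and E2f1, against 8.81% of all genes. Which gene a distal region acts on was not measured.

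**Figure D2:**
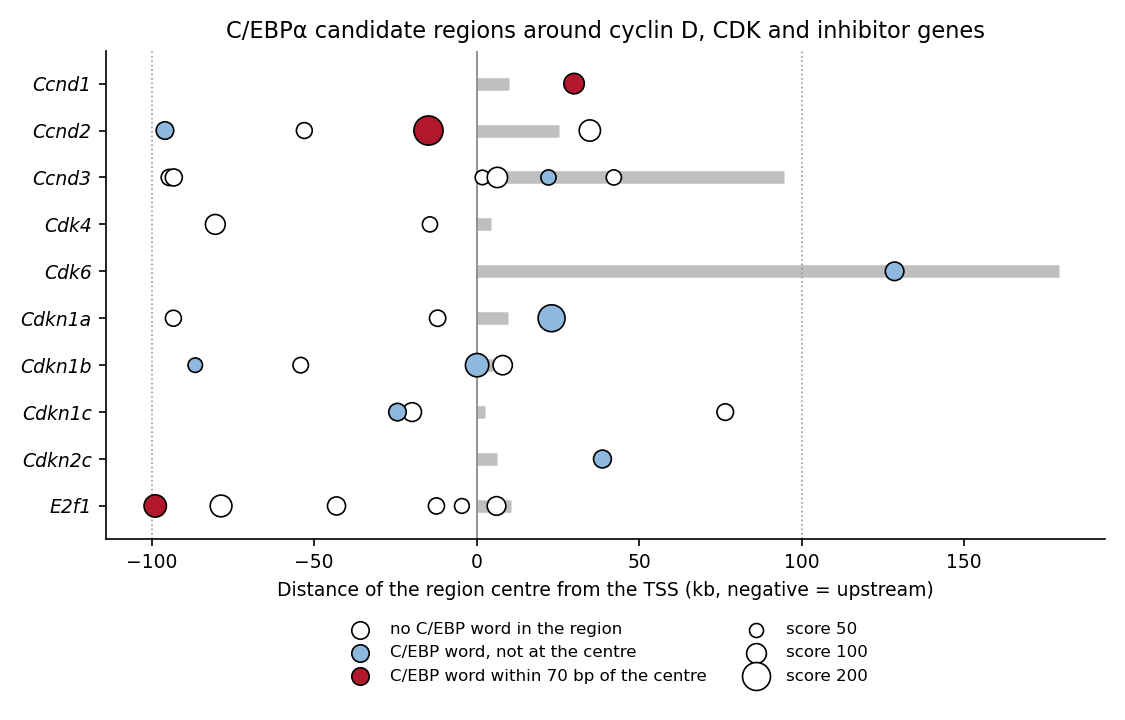
Position of the 31 candidate regions relative to the TSS of their gene (kb, upstream negative). Circle area is proportional to the score, colour gives the presence of a C/EBP word, grey bars are gene bodies and dotted lines mark 100 kb. The 3 regions with a C/EBP word at the centre belong to Ccnd1, Ccnd2 and E2f1, and the Cdkn1b promoter and the gene body of Ccnd3 are the places where regions lie closest to the TSS of their gene.

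Among the D cyclins, Ccnd2 had the region with the highest score of all 31. Ccnd2 is the D cyclin induced by growth factor signalling in many blood cells. Its region at chr6:127115628-127116130 (mm9) was 503 bp wide, intergenic (outside protein-coding genes), with its centre 14813 bp upstream of the TSS, and Ccnd2 was the protein-coding gene with the nearest TSS. It lay within the lincRNA gene 9330179D12Rik, which runs from 127099407 to 127162429 on the opposite strand to Ccnd2. The score of 217.4 ranked 319 among all 17899 regions. The region held 3 C/EBP words, of which TTGCACAA lay 10 bp from the centre and the others, TTGCAGAA and TTGCATAA, 192 and 230 bp from it. The words of this region were thus spread over one side of the centre and no ETS, RUNX, SP1 or E2F word was found in it. A region 34839 bp downstream of the TSS, chr6:127065863-127066590, had a score of 115.63, a width of 728 bp, no C/EBP word and a nearer gene, 9630033F20Rik. The remaining regions of Ccnd2 lay 53020 and 95907 bp upstream with scores of 64.12 and 78.79, and the farther of them, chr6:127196606-127197340, held the palindromic word TTGCGCAA 180 bp from its centre.

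Ccnd1, the D cyclin most often tied to mitogen signalling, had a single region, chr7:152095546-152096018, with a width of 473 bp and a score of 107.21, higher than that of 84.4% of all regions. It was intergenic, 29992 bp downstream of the TSS and past the end of the gene, and its nearest TSS was that of Oraov1 at 5223 bp. It held 2 C/EBP words, TTGCTGAA at 42 bp from the centre and TTGCCAAA at 150 bp, and 2 ETS words at 134 and 144 bp. The C/EBP word farther from the centre overlapped the ETS word AGGAAGT by 1 base.

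Ccnd3, a D cyclin expressed in many blood lineages, had regions that depend on the transcript. With the longest transcript their scores ranged from 53.86 to 105.47. The longest annotated transcript starts at 47642000 on chromosome 17, and the other one at 47730416, inside intron 2 of the longer one. With the longer transcript, 4 regions lay in intron 1. Of these, chr17:47648053-47648723 had the highest score, 105.47, at 6388 bp downstream of the TSS with a width of 671 bp. It held no C/EBP word and 1 ETS word 293 bp from its centre. The region nearest the TSS, chr17:47643464-47644101, lay 1783 bp downstream and had a score of 53.86, and only 8.72% of all regions scored lower. The others in the intron had scores of 58.88 and 58.82, and the 2 regions upstream, at 94573 and 93186 bp, scored 67.15 and 74.0. The region at 94573 bp, chr17:47547136-47547718, was the only one of the 31 with more than 50% of its 32-base words at more than 1 position of the genome (60.1%). More than 50% was also found in 9.74% of all regions. Measured from the start of the shorter transcript, the 4 intronic regions lay 46187 to 86633 bp upstream, and 2 further regions came within 100 kb. One of these, chr17:47824784-47825400, had a score of 517.51, more than any of the 31 regions, lay 94676 bp downstream with Tomm6 as the nearest gene, and held a C/EBP word at its centre. The other, chr17:47770444-47771055, lay 40334 bp downstream, nearest to Usp49, with a score of 90.95.

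The kinase genes Cdk4 and Cdk6 had 2 regions and 1 region, against a median of 2 over all genes. None of these lay within 5 kb of the TSS of its kinase gene. Cdk4 had a region of 1027 bp, the widest of the 31, at chr10:126419668-126420694. It had a score of 100.23, 80409 bp upstream of Cdk4, in intron 1 of Ctdsp2, whose TSS lay 4408 bp away. The other region of Cdk4, chr10:126485874-126486573, had a score of 58.32 and lay 14366 bp upstream in coding exon 2 of Cyp27b1. Neither held a C/EBP word, and 11 protein-coding genes had a TSS within 100 kb of each. The only region of Cdk6, the D cyclin kinase associated with hematopoietic stem and progenitor cells, was chr5:3472146-3472877, with a score of 88.12 and a width of 732 bp. It lay in intron 4, at 128619 bp downstream of the TSS, and belonged to Cdk6 by the gene body and not by distance. The nearest TSS was that of Gm17590, 666 bp from the centre. It carried the C/EBP word TTACAAAA 146 bp from its centre.

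At the Cip/Kip inhibitors the regions of high score took different positions. Cdkn1b was the only one of the 10 genes with a region across its TSS. This region, chr6:134870135-134870994, had a width of 860 bp, a score of 139.32 that ranked 1014, and a centre 146 bp downstream of the TSS in the 5' UTR in exon 1. It had a GC content of 62.4% and a CpG observed to expected ratio of 0.944, against medians of 48.7% and 0.198 over all regions. It held 1 C/EBP word, TTGCCCAA, which lay 49 bp downstream of the TSS and 96 bp from the centre, and 2 SP1 words CCCGCCC at 100 and 359 bp from the centre. A further region, chr6:134878139-134878748, lay 8025 bp downstream of the Cdkn1b TSS, past the end of the gene, with a score of 95.22 and a similar CpG ratio of 0.931. It held no C/EBP word, a RUNX word 52 bp from the centre and the only E2F word found in the 31 regions, TTTCGCGC, at 176 bp. The regions farther upstream, at 54141 and 86575 bp, scored 61.17 and 53.65.

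Cdkn1a, whose product p21 is the inhibitor induced by p53, had the region with the second highest score, chr17:29250595-29251383. The region had a score of 185.62, ranked 434, was 789 bp wide and was intergenic with respect to protein-coding genes, although the non-coding gene Gm16194 starts inside it, at 29251090 on the plus strand. It lay 23065 bp downstream of the TSS, and the TSS of Rab44 was slightly nearer, at 21012 bp. From the other annotated starts of Cdkn1a, at 29230717 and 29235152, the distances were 20272 and 15837 bp, so that with either of these starts Cdkn1a is nearer than Rab44. Its C/EBP word TTGCCCAA lay 82 bp from the centre, just outside the window of 70 bp, and a RUNX word lay 335 bp from it. Of its 32-base words, 13.3% occurred at more than 1 genome position. The region nearest the Cdkn1a TSS, chr17:29215690-29216163, was intergenic, 11997 bp upstream, with a width of 474 bp and a score of 67.56, and held none of the words searched. It contained the annotated start of another non-coding gene, the lincRNA Gm16197, at 29215906 on the minus strand. The farthest, 93309 bp upstream in intron 2 of Stk38, had a score of 65.14.

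Cdkn1c, the imprinted gene of p57, had 3 regions with scores from 70.36 to 90.17, none of which reached 100. The highest and nearest, chr7:150666516-150667081, lay 19844 bp upstream in intron 5 of the neighbouring Slc22a18. It held a RUNX word 129 bp from the centre and no C/EBP word. The region next to it, 24353 bp upstream in the same intron, had a score of 78.32 and the C/EBP words TTGCCCAA and TTGCAAAA at 172 and 264 bp from its centre. The last lay 76515 bp downstream in intron 15 of Kcnq1, the host of the imprinting control of this domain, with a score of 70.36. The single region of the INK4 gene Cdkn2c, chr4:109300779-109301367, was intergenic, 38721 bp downstream of the TSS, with a score of 81.01 and a width of 589 bp. It lay within the non-coding gene Gm12811, which runs from 109241819 to 109329396 on the opposite strand to Cdkn2c. It held TTGCTTAA at 254 bp from the centre, near its edge. The 2 inhibitor genes without a region of score 100 or more were therefore Cdkn1c and Cdkn2c, and Cdk6 was the only other member without one.

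E2f1 had 6 regions spread over more than 100 kb, and the 2 with the highest scores were the most distant. The region chr2:154494260-154494797 had a score of 127.59 and a width of 538 bp, 98901 bp upstream in intron 1 of Chmp4b. It held the C/EBP word TTGCCGAA at 16 bp from the centre and TTGCGCAA at 100 bp. The region chr2:154473825-154474714, 78642 bp upstream and 3171 bp from the TSS of Chmp4b, had a score of 120.75 and lacked C/EBP words. Nearest to the TSS of E2f1, at 4533 bp upstream, was chr2:154399886-154400436 with a score of 55.31, a width of 551 bp and 1 ETS word 227 bp from the centre. A region in intron 3 of E2f1 had a score of 88.85 and an ETS word 61 bp from the centre. The 4 regions of E2f1 within 50 kb of its TSS all scored below 100.

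**Figure D3:**
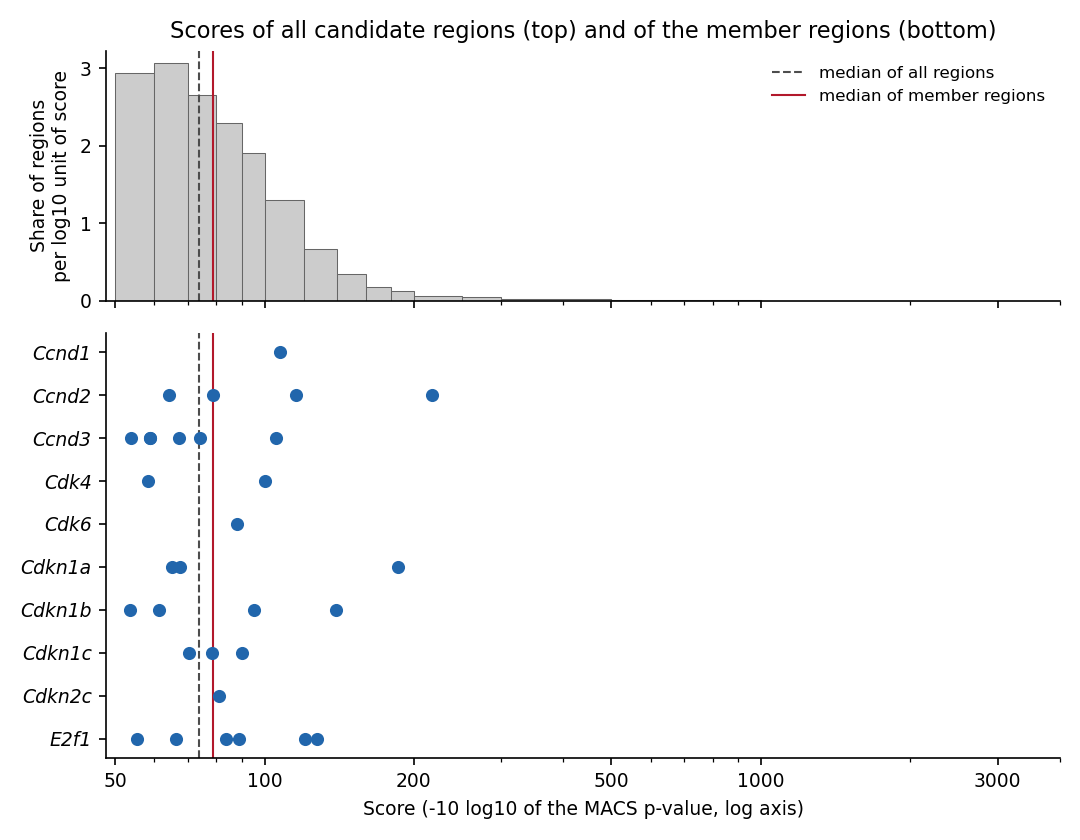
Distribution of the scores of all 17899 candidate regions (top, share per log10 unit of score) and scores of the 31 regions by gene (bottom) on a log axis. The medians of all regions (73.75, dashed) and of the 31 regions (78.79, solid) lie close together, and the regions of Ccnd2 at 217.4 and Cdkn1a at 185.62 stand apart from the others.

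Over the 31 regions the median score was 78.79, with a range from 53.65 to 217.4, against 73.75 over all regions. A score of 100 or more was reached by 9 of 31 (29.0%), against 20.3% of all regions. The median width was 652 bp (range 473 to 1027 bp), against 587 bp. Score and width were hardly related among the 31 regions (Spearman's rho 0.1), nor were score and distance to the TSS (rho -0.0153). These coefficients describe regions of 1 list. The D cyclins had 11 regions with a median score of 74.0, the Cip/Kip inhibitors 10 with a median of 74.34, the kinases 3 with a median of 88.12 and E2f1 6 with a median of 86.24. A TSS of any gene lay within 5 kb of 10 of the 31 regions, against 10.4% of all regions and 12.9% of the 14497 regions in the window of at least 1 protein-coding gene. A CpG observed to expected ratio of 0.6 or more was found in 5 of the 31, against 3.21% and 3.44%. The 31 regions were chosen by their closeness to genes, and neither set of regions was matched to them for the density of genes, so that no enrichment is read from these shares. Besides the pair at Cdkn1b, these were the region 94573 bp upstream of Ccnd3, the Cyp27b1 region of Cdk4 and an E2f1 region 295 bp from the TSS of Zfp341.

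The filtered list published with the study was matched to the candidates by identifier and position. It contained the Ccnd2 region 14813 bp upstream and the Cdkn1a region 11997 bp upstream, that is 2 of the 31 regions, and 2.22% of all candidates. The Cdkn1a region downstream of the gene, with the higher score, and the Cdkn1b promoter region were not in it. The study also names Ccnd2 as a C/EBPα target, from changed expression in Cebpa-deleted stem cells and a bound region within 100 kb. That expression was not examined here.

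C/EBP words were no more frequent in the 31 regions than in the whole list. Such a word lay within 70 bp of the centre in 3 of 31 regions (9.68%, 95% exact binomial interval 2.04 to 25.8%), against 10.6% of all regions. Windows of the same length 1000 bp to both sides held it in 3 of 62 cases (4.84%), against 4297 of 35798 such windows (12%) over all regions. The 3 regions belonged to Ccnd1, Ccnd2 and E2f1, and each had a score above 100. Among regions with a score of 100 or more, the word was at the centre of 3 of the 9 at the member genes, against 15.9% of all such regions. Of all 368 regions with a score of 200 or more, to which the Ccnd2 region belongs, 46.5% held the word at the centre and 81.2% anywhere, and it was found in 10.9% of their flanking windows. Anywhere between start and end, 11 of the 31 regions held the word (35.5%, interval 19.2 to 54.6%), against 36.3% of all regions. At least 1 such region was present at 9 of the 10 genes, the exception being Cdk4, against 47.6% of all genes. The 10 genes had a higher median number of regions than all genes (3 against 2). A match gives letters in a window and does not show that the factor bound there.

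**Figure D4:**
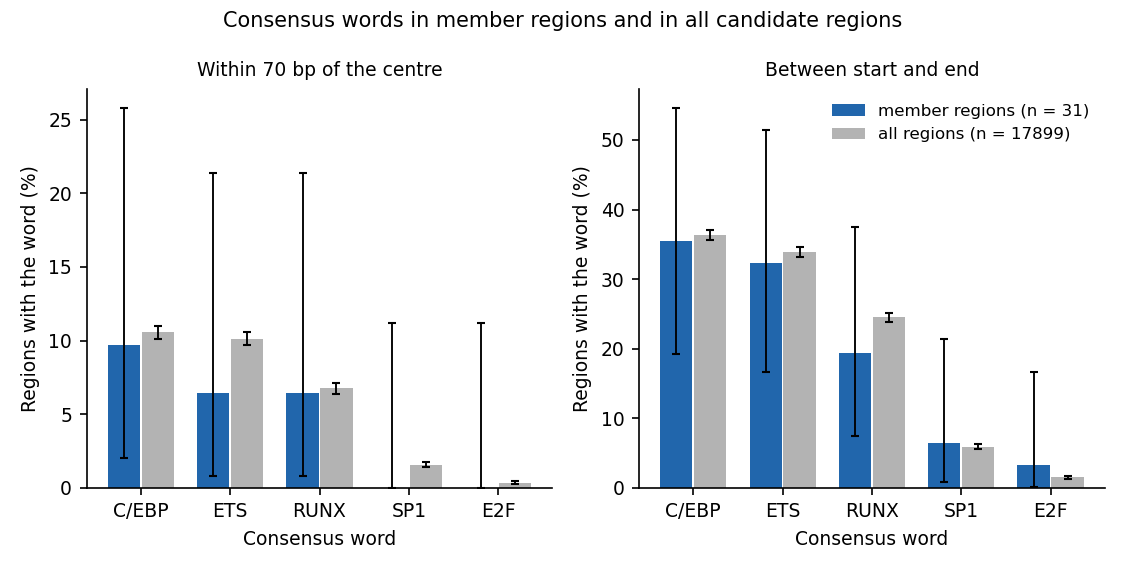
Share of regions (percent) with each consensus word within 70 bp of the centre (left) and between start and end (right), for the 31 regions and for all 17899 regions, with 95% exact binomial intervals that cover counting error only. For all 5 words the intervals of the 31 regions contain the share of all regions.

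The ETS word, GGAAG with A or C before it and C or T after it, lay at the centre of 2 of the 31 regions, at Ccnd3 and E2f1, against 10.1% of all regions. The RUNX word, GGT with TGT or TGC before it and T or C after it, also lay at 2 centres, at Ccnd3 and Cdkn1b, against 6.77%. The SP1 word CCCGCCC and the E2F word (TTTGGCGC, TTTCGCGC, TTTGCCGC or TTTCCCGC) were at the centre of none, against 1.58% and 0.335% of all regions. No centre held 2 kinds of word.

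The member closest to the edge of the window was the E2f1 region at 98901 bp with its score of 127.59. Just outside it was a region 101765 bp upstream of Ccnd3, with a score of 82.66. The nearest regions left out at Ccnd2 and Cdk6 lay at 108401 and 109743 bp with scores of 67.77 and 61.69.

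Other genes of the cycle and of quiescence were taken from fixed lists, which were chosen with earlier results of these data known. Their intervals cover counting error only and count neighbours that share a region as separate genes, so that no enrichment is read from them. Of 39 further genes of the cell cycle and the Rb and E2F pathway, 38 had a region, 18 had one with a score of 100 or more (46.2%, 95% exact binomial interval 30.1 to 62.8%) and 6 had one of 200 or more, against 80.3%, 28.9% and 5.5% of all genes. The 6 genes were Trp53, Mki67, Cdkn2a, Cdkn2b, Mcm5 and Ccnh. The highest, with a score of 727.82 and a C/EBP word at its centre, lay 91040 bp downstream of the start of the longest transcript of Trp53, the gene of p53, but nearest to Eif4a1. Cdkn2a and Cdkn2b, which encode the INK4 inhibitors p16 and p15 and the p53 regulator ARF, shared 1 region with a score of 290.86, chr4:89035577-89036612, which lay 79154 bp upstream of Cdkn2b. It held 2 C/EBP words, both off the centre. Regions of Mki67, a marker of cycling cells, and of Ccnh, a subunit of the CDK-activating kinase, scored 332.38 and 235.9 and lay nearest to these genes. The Mcm5 region of score 281.29 lay nearest to Hmox1. The single gene of this list without a region was Cdc6.

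Of 20 genes tied to quiescence 19 were matched by symbol to a single annotated protein-coding gene, and Gfi1, which was not, was left out. A region was present at 16 of the 19, a region with a score of 100 or more at 8 (42.1%, interval 20.3 to 66.5%) and one of 200 or more at 2, Foxo3 and Egr1, against 80.3%, 28.9% and 5.5% of all genes. Foxo3, a forkhead factor needed to keep hematopoietic stem cells in quiescence, had a region with a score of 473.16 at chr10:41997758-41998540, 1591 bp upstream of its TSS, with a C/EBP word off the centre. This score was above that of each of the 31 regions. Its relative Foxo4 had a region 3875 bp downstream of the TSS that scored 107.95 and lacked C/EBP words. The region of Egr1 with a score of 528.97 lay 70740 bp from its TSS and nearest to Etf1. Ndn, Stk11 and Btg2 had no region. Neighbouring genes share regions, and neither list was tested against all genes.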

How the data were processed

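C/EBPα ChIP-seq in LSK cells was analysed from the list of regions deposited for 1 of 13 samples. The other 12 samples were not analysed here. According to the submitters' processing notes and the study's methods, the authors mapped reads to mm9 with Bowtie 0.12.8 and called regions with MACS 1.4.2 against the IgG mock, with bedtools 2.16.2 also named. The methods give a slightly older Bowtie. The deposited score is the log10 of the caller's p-value multiplied by 10, with the sign turned, and the list starts at a score of 50. It is the stage before peaks were filtered for height, for presence in both C/EBPα samples and for IgG signal. The sources used here do not say whether both samples' reads were pooled. The list holds no read numbers and the study's figure of mapped reads was not used here, so no precision from depth is given.

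Positions are 1-based on mm9. Genes came from the GENCODE annotation of NCBIM37, which is mm9, with the transcript of the longest genomic span for each of 22367 protein-coding genes. Region centres replaced summits. Words were counted on both strands within 70 bp of centres and in windows 1000 bp to each side. The share of 32-base words found at more than 1 position was counted over the whole assembly. Intervals are exact binomial (Clopper-Pearson) at 95% and cover counting error only. No test was run. Assignment and word counting were tested on simulated data. The genes named were the 10 members with their highest and nearest regions and every region of score 100 or more or with a C/EBP word at the centre, and, from the lists, genes with a region of score 200 or more, or of 100 or more within 5 kb of the TSS. Other regions of the members, genes of the lists without a region, and the regions of the other Ccnd3 start fell outside it and were picked with their values in view. The members and lists were chosen with earlier results of these data known. Alternatives were other windows, starts, score minimums, words and nearest-gene assignment. Python 3.11.15 was used with numpy 2.4.6, pandas 2.3.3, scipy 1.17.1, pysam 0.24.0, numba 0.67.0, matplotlib 3.10.9 and samtools 1.23.1.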

Additional observations from a re-analysis of the deposited data

How the results depend on the processing

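The number of regions depended on the window and the score minimum, with regions in the gene body kept at every window. In place of 31 regions, windows of 10, 50 and 500 kb gave 9, 20 and 119, assignment to the nearest gene gave 12, and there were 9 with a score of at least 100 and 1 with a score of at least 200. With every annotated transcript start there were 33. A region was present at 4 of the 10 genes within 10 kb, against 31% of all genes, and at all 10 within 50 and 500 kb, against 61.3% and 98.1%, with Cdk6 counted through its gene body alone at 10 and 50 kb. Genes with a score of 100 or more numbered 7, but 1 at a minimum of 200, 2 at 200 with every transcript start, 3 when only regions nearest to the gene were counted, and 4 when the nearest gene was taken over every transcript start, against 10.3% and 10.6% of all genes for the last 2. The last 3 settings were chosen after seeing the data. C/EBP words, at the centre of 3 regions, were found in 0 with TTGCGCAA, in 1 with the reversed word, in 6 within 150 bp of the centre and in 11 over the whole region, against 0.525%, 6.72%, 20.3% and 36.3% of all regions, where the longer windows hold more words by construction. The other alternatives, among them the median score within 50 and 500 kb and width in place of score, stayed within 1.5 times of the main value. No paired analysis was possible because only 1 list of regions was analysed and no result comes from a test. Depth was not used here, so it cannot be said which regions a deeper library would add.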
